A study of Mus musculus with 6 samples.

Results

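The genes described here are 38 genes of DNA replication and nucleotide supply, chosen by name: the subunits of the replicative helicase and the proteins that load and start it, the sliding clamp and its loader, polymerase and primase subunits, the single-strand binding complex, lagging-strand enzymes, chromatin assembly factors, ribonucleotide reductase, thymidylate synthase and the E-type cyclins. All 38 were found among the 24940 genes of the deposited table, each listed with 1 genomic copy. Polyadenylated RNA was sequenced from primary hepatic stellate cells of wild-type female C57BL/6JBomTac mice. Stellate cells are liver pericytes that wrap the sinusoids and store vitamin A. At 2 days after isolation the cultures received obeticholic acid (OCA) at 10 µM, a modified bile acid and agonist of the nuclear receptor FXR, or an equal volume of its solvent DMSO at a dilution of 1:1000. The neuropeptide VIP was added at 500 nM to both after 3 h, and the cells were kept for another 3 h. There were 3 libraries of DMSO+VIP and 3 of OCA+VIP, so that VIP was present in all 6 libraries and the comparison is of OCA against its solvent in VIP-treated cells. Whether each library had its own animal or culture is not in the labels, and every p-value here measures only how far these samples spread, perhaps for technical reasons. Libraries are numbered as in the table.

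In a dividing cell, the origin recognition complex, CDC6 and CDT1 load the ring of MCM2 to MCM7 onto DNA before S phase. With CDC45 and the GINS complex this ring becomes the active helicase, behind which PCNA holds the polymerases on the template, RPA covers single strands, and FEN1 and LIG1 join the lagging-strand fragments. Ribonucleotide reductase and thymidylate synthase supply the deoxynucleotides. Many of these genes are classic targets of the E2F transcription factors. Stellate cells rest outside the cell cycle in healthy liver and can re-enter it when they are activated, as by culture on plastic.

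The DMSO+VIP libraries held 2.84e+06 to 4.57e+06 counts and the OCA+VIP libraries 4.53e+06 to 9.95e+06. Levels are given as CPM, the count of a gene scaled to a common column total of 1e+06, and between genes also per kilobase of exon. Low counts lay mostly near multiples of 3, and a step of 6 was assumed. Genes of a few CPM are thus taken to rest on few sampled fragments. All 12 stellate cell markers passed the filter on low counts, with sums of 805 to 1052 CPM in DMSO+VIP and 964 to 1094 CPM in OCA+VIP. The sum covers moves both ways: Colec11, Dcn, Ecm1 and Ngfr were higher (log2 2.17, 0.98, 0.87 and 1.15), Hgf and Des lower (log2 -2.11 and -0.52), and the other 6 did not pass. Hepatocyte markers moved with the treatment: of the 12, 9 were tested and 8 were higher, beside 5.72% of all tested genes. Among the 8, Ttr and Serpina1b were at 0 in every DMSO+VIP library and passed the filter only through OCA+VIP. Cyp3a11, Cps1 and Hnf4a were too low to test, with Cps1 at 0 in every library. The hepatocyte markers summed to 74.0 to 82.0 CPM in DMSO+VIP and 241.3 to 400.3 CPM in OCA+VIP. Their part in the results below was not tested. Macrophage markers summed to 15.3 to 47.3 and 32.8 to 44.8 CPM, with Vsig4, C1qa and C1qb at 0 in all libraries. Endothelial markers summed to 4.15 to 9.84 and 9.37 to 20.7 CPM (Lyve1 at 0), cholangiocyte markers to 6.16 to 14.9 and 17.3 to 21.01 CPM (Krt7 at 0), and markers of mesothelium and portal fibroblasts to 0 to 4.23 and 1.26 to 2.07 CPM (Msln, Upk3b and Thy1 at 0). Lymphocyte markers were at 0 in DMSO+VIP and summed to 3.67 to 8.87 CPM in OCA+VIP, nearly all of it Cd79a, with 7 of the 9 at 0 throughout.

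With OCA, 6 of the 36 replication genes that could be tested were higher and 1 was lower. The 6 that rose were Mcm3, Mcm7 and Mcm10 of the helicase group, Orc6 and Cdt1 of the loading machinery, and the flap endonuclease Fen1. The gene that fell was Pold1, the catalytic subunit of DNA polymerase delta. The other 29 tested genes did not pass, among them Pcna, Mcm2, Mcm4 and the ribonucleotide reductase subunits, and Cdc6 and Ccne1 were too low to test. In bulk RNA, fewer cells of a kind and less RNA per cell cannot be told apart.

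The test was edgeR's quasi-likelihood F test with Benjamini-Hochberg adjustment over 11286 genes and a threshold of 0.05. Higher calls made up 16.7% of the tested replication genes, beside 5.72% of all tested genes, and lower calls 2.78%, beside 6.04%. The fitted log2 fold change was above 0 for 25 of the 36 genes (69.4%, beside 50.1% of all tested genes), with a median of 0.22 beside 0.001 for all tested genes. These shares are descriptions, since the genes were chosen by name but with earlier results of these data known. The CPM of the groups did not overlap for 10 of the 36, all with OCA+VIP the higher, where 16.8% of all tested genes were so separated. None lay wholly lower, beside 13.9% of all tested genes. Orc1, Gins1, Gins2 and Pole, all with estimates above 0, passed the filter on low counts only with OCA+VIP libraries counted. Uhrf1, with an estimate below 0, passed it only with DMSO+VIP libraries counted. Orc1 is also among the 10, so these counts are not free of the filter. The count of calls was sensitive to single libraries: it was 3 without OCA+VIP library 1 or without OCA+VIP library 3, 4 without DMSO+VIP library 2, and 8 without OCA+VIP library 2, the deepest. Mcm3, Mcm7 and Mcm10 were the 3 that stayed called in all of these fits.

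**Figure D1:**
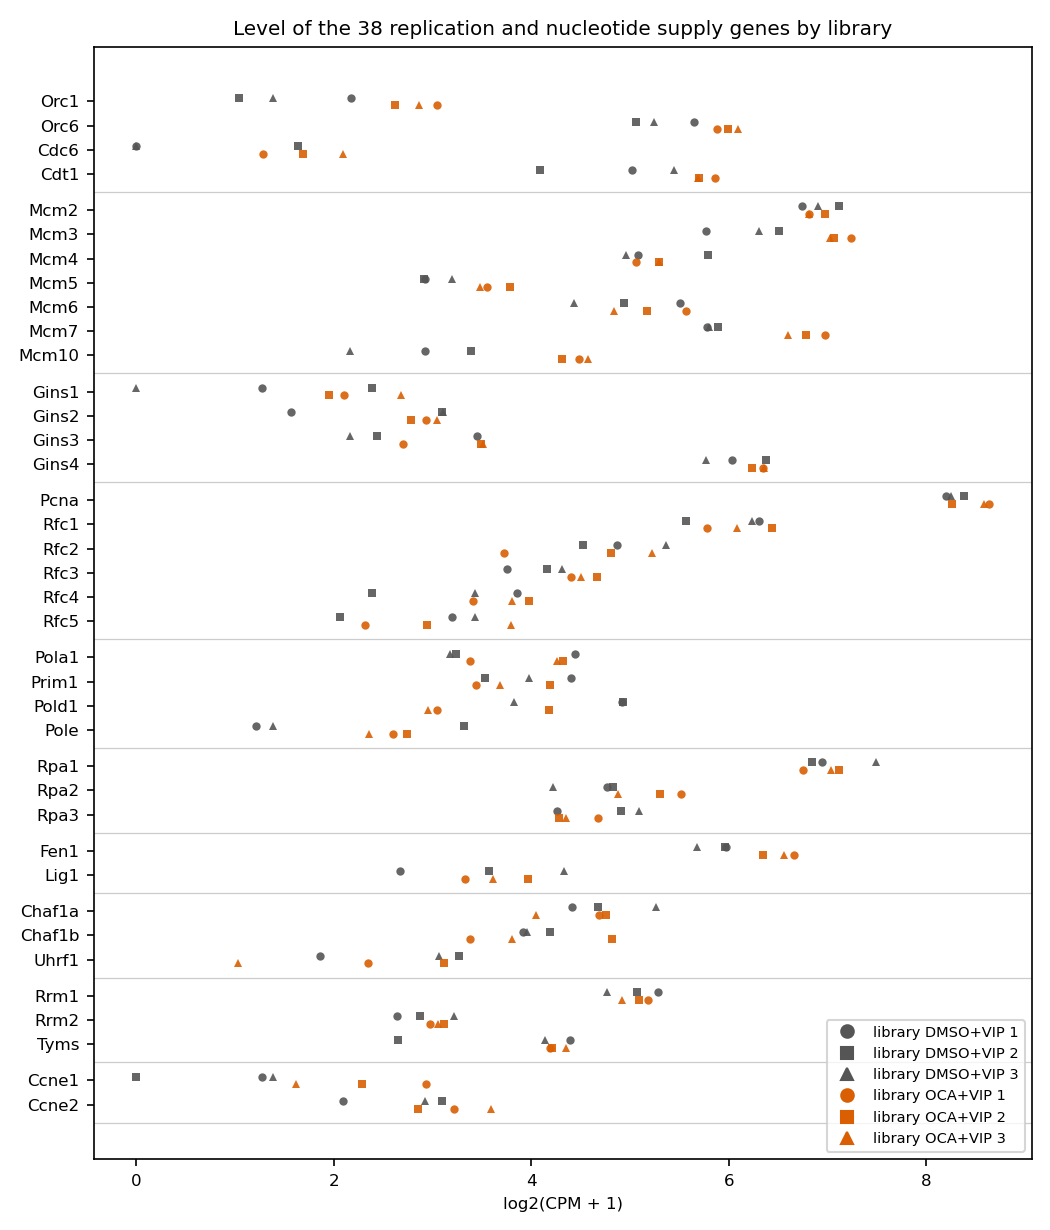
Level of each of the 38 genes in each library as log2(CPM + 1), with DMSO+VIP in grey and OCA+VIP in orange and lines between roles. The orange points of Mcm3, Mcm7, Mcm10, Fen1, Orc6 and Cdt1 lie to the right of all grey ones, while those of Mcm2, Mcm4 and Rrm1 lie among them.

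Summed over the 38 genes, the level was 1310, 1363 and 1370 CPM in the DMSO+VIP libraries (1348 ± 33.2, SD, n = 3) and 1642, 1628 and 1621 CPM in the OCA+VIP libraries (1630 ± 10.8, SD, n = 3). The groups did not overlap, and the difference of 282.8 CPM was larger than the spread within either. A few abundant genes carried it. Mcm3 contributed 22.4% of the difference, Mcm7 19.2% and Pcna 18.5%, together 60.1%, although Pcna by itself did not pass the test. Without these 3 genes, a choice made after their values were seen, the sums were 908.8, 882.5 and 934.2 CPM in DMSO+VIP and 970.7, 1079 and 1014 CPM in OCA+VIP, still without overlap. Genes called higher also made up most of the remaining difference of 112.9 CPM. Fen1, Orc6, Cdt1 and Mcm10 contributed 33.5, 23.3, 22.8 and 14.5 CPM to it, and Pold1 and Rpa1, the most negative, -13.5 and -13.4 CPM. How often such sums separate for other sets of genes was not examined.

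The loading machinery held 2 of the 6 rises. Orc6, the smallest subunit of the origin recognition complex (chromosome 8, 85299632 to 85308279, mm10), stood at 49.0, 32.4 and 37.0 CPM in DMSO+VIP and at 58.0, 62.8 and 67.4 CPM in OCA+VIP. All 3 treated libraries were above all 3 controls, a 1.56-fold rise (log2 0.64, SE 0.19, adjusted p = 0.027). Cdt1, which brings the MCM ring to the origin and is destroyed once S phase begins (chromosome 8, 122568015 to 122573130), stood at 31.5, 16.03 and 42.5 CPM in DMSO+VIP and at 57.1, 50.8 and 50.4 CPM in OCA+VIP. The controls ranged widely and the treated libraries were close together, all above the highest control (1.72-fold, log2 0.79, SE 0.25, adjusted p = 0.041). Orc6 was no longer called without DMSO+VIP library 2 or 3 or OCA+VIP library 1 or 3 (adjusted p 0.071 to 0.12), nor Cdt1 without DMSO+VIP library 1 or 2 or OCA+VIP library 1 or 3 (adjusted p 0.11 to 0.18), nor Cdt1 with upper-quartile scaling (0.053).

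Orc1, the largest subunit of the origin complex and the one whose amount follows the cell cycle, was low: 3.50, 1.06 and 1.61 CPM in DMSO+VIP and 7.28, 5.13 and 6.29 CPM in OCA+VIP. The groups did not overlap, but the interval of the log2 fold change ran from -0.05 to 3.12 (estimate 1.53, adjusted p = 0.21). Cdc6, the loading ATPase, was at 0, 2.11 and 0 CPM in DMSO+VIP and at 1.43, 2.21 and 3.27 CPM in OCA+VIP. Its DMSO+VIP libraries held 6 counts together, under a floor of 18 counts for a group (3 of the assumed steps of 6), so no fold is given. Per kilobase of exon the order was Orc6, Cdt1, Orc1 and Cdc6 in both groups: 24.0 ± 5.20, 13.8 ± 6.09, 0.686 ± 0.428 and 0.156 ± 0.270 CPM per kb in DMSO+VIP (SD, n = 3). The ranges of the libraries overlapped there only for Orc1 and Cdc6.

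Of the 7 MCM genes, 3 rose: Mcm3, Mcm7 and Mcm10. Mcm3, a subunit of the helicase ring (chromosome 1, 20802968 to 20820312, minus strand), stood at 53.7, 90.0 and 78.4 CPM in DMSO+VIP and at 149, 133 and 130 CPM in OCA+VIP. Every treated library was above every control (1.85-fold, log2 0.89, SE 0.17, adjusted p = 0.0011). Mcm7, the subunit next to it in the ring (chromosome 5, 138164583 to 138171266, minus strand), had the tightest controls, 53.8, 58.3 and 54.7 CPM, beside 125, 109 and 95.6 CPM in OCA+VIP. It rose 1.96-fold (log2 0.97, SE 0.16, adjusted p = 0.00023). Mcm10, a separate protein that helps the loaded helicase to start (chromosome 2, 4990724 to 5012344), stood at 6.56, 9.51 and 3.48 CPM and at 21.4, 18.8 and 22.8 CPM. Its 3.22-fold rise was the largest of the tested replication genes that passed (log2 1.69, SE 0.39, adjusted p = 0.0064). These 3 calls held in each of 15 other fits, in which the log2 fold change was 0.68 to 1.05 for Mcm3, 0.83 to 1.06 for Mcm7 and 1.38 to 2.03 for Mcm10.

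The other ring subunits did not pass. Mcm2 stood at 106, 138 and 119 CPM in DMSO+VIP and at 112, 125 and 111 CPM in OCA+VIP, with a 95% interval of the log2 fold change of -0.35 to 0.21. Mcm4 was at 32.9, 54.2 and 30.1 CPM and at 32.4, 38.2 and 38.2 CPM (interval -0.59 to 0.37). For both, the treated libraries lay within the range of the controls, and the intervals leave out a change as large as that estimated for Mcm3. Mcm6 was at 44.5, 29.6 and 20.6 CPM and at 46.4, 34.98 and 27.7 CPM (interval -0.38 to 0.73). Mcm5 was at 6.56, 6.52 and 8.17 CPM and at 10.7, 12.8 and 10.2 CPM. Its groups did not overlap and its estimate of 0.66 was close to that of Orc6, but at these few counts the interval ran from -0.26 to 1.58 (adjusted p = 0.37).

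**Figure D2:**
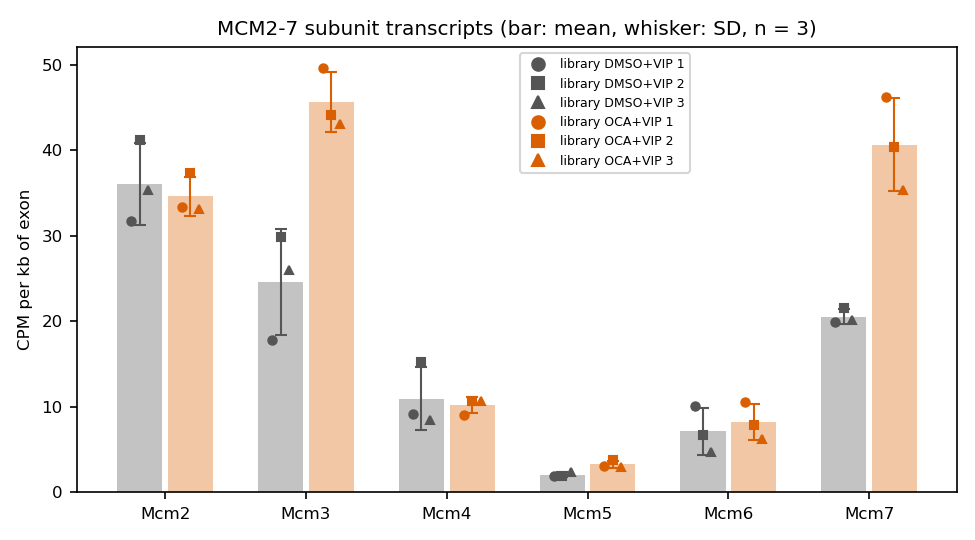
Level of the 6 ring subunits in CPM per kb of exon, with bars at the mean, whiskers at the SD (n = 3) and 1 point a library. Mcm2 is the highest with DMSO+VIP (36.1), while with OCA+VIP the means of Mcm3 (45.6) and Mcm7 (40.6) are above that of Mcm2 (34.6).

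The ring holds 1 copy of each subunit, so levels per kilobase of exon and ratios within a library show how even the transcripts were. In DMSO+VIP the order was Mcm2 at 36.1 ± 4.79, Mcm3 at 24.6 ± 6.16, Mcm7 at 20.5 ± 0.885, Mcm4 at 10.9 ± 3.69, Mcm6 at 7.15 ± 2.73 and Mcm5 at 2.07 ± 0.276 CPM per kb (SD, n = 3). Neighbours overlapped between Mcm3 and Mcm7 and between Mcm4 and Mcm6. In OCA+VIP it was Mcm3 at 45.6 ± 3.49, Mcm7 at 40.6 ± 5.43, Mcm2 at 34.6 ± 2.33, Mcm4 at 10.2 ± 0.934, Mcm6 at 8.24 ± 2.14 and Mcm5 at 3.28 ± 0.410 CPM per kb. There the ranges of Mcm3 and Mcm7, of Mcm7 and Mcm2, and of Mcm4 and Mcm6 overlapped. Mcm5 was thus the lowest subunit in both groups.

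The ratio of Mcm3 to Mcm2 per kilobase was 0.562, 0.726 and 0.736 in the DMSO+VIP libraries and 1.49, 1.19 and 1.30 in the OCA+VIP libraries. The ratio of Mcm7 to Mcm2 was 0.627, 0.523 and 0.572 and then 1.39, 1.08 and 1.07. Both moved from below 1 in every control to above 1 in every treated library. The ratio of Mcm7 to Mcm3 overlapped between the groups, at 1.12, 0.721 and 0.777 beside 0.932, 0.913 and 0.821. Of the 15 pairs of ring subunits, 6 had ratios that did not overlap between groups: Mcm3, Mcm5 and Mcm7 against Mcm2, Mcm3 and Mcm7 against Mcm4, and Mcm7 against Mcm6. That is 40% of the pairs, beside 29.9% of all pairs of the 10685 tested genes with counts in every library, and the pairs share subunits. The share of Mcm2 in the summed level of the 6 subunits was 35.6% ± 0.746 in DMSO+VIP and 24.3% ± 2.10 in OCA+VIP (SD, n = 3), that of Mcm3 24.0% ± 3.83 and 32.01% ± 1.18, and that of Mcm7 20.4% ± 1.75 and 28.4% ± 1.82. These ratios are descriptions, since an exact two-sided permutation test of 3 libraries against 3 cannot go below p = 0.1. Since each is taken within a library, scaling between libraries does not enter.

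The proximal promoters of Mcm3 and Mcm7, which rose, and of Mcm6, which did not pass, are shown to set the regulatory sequence beside these values. They are the 250 bases before the start site from RefSeq (GRCm38.p6), read 5′ to 3′ on the gene's strand, at chr1:20820313-20820562, chr5:138171267-138171516 and chr1:128359706-128359955. Capitals mark CCAAT, the box bound by NF-Y, or its reverse complement ATTGG, and matches to 4 E2F words, TTTCCCGC, TTTGGCGC, TTTCGCGC and TTTGCCGC, on either strand.
Mcm3: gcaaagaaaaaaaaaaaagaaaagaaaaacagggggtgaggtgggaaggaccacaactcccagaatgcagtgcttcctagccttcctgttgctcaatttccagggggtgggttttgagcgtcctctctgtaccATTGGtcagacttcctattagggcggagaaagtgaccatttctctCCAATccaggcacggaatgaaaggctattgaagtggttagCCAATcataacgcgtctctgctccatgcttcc
Mcm7: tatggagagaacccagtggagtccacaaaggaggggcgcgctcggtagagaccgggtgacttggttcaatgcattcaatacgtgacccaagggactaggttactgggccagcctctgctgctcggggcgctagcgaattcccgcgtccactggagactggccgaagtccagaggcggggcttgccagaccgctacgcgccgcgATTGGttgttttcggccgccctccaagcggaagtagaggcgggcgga
Mcm6: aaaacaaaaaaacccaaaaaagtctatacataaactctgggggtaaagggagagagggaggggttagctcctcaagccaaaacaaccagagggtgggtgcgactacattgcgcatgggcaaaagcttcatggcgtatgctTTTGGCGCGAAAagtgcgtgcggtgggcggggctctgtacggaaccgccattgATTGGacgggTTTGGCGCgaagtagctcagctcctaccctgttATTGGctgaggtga
Upstream of Mcm3 lie 3 CCAAT boxes and no E2F word, but 2 E2F words follow its start site, at bases 19 and 38. Upstream of Mcm7 lie 1 CCAAT box and no E2F word. Mcm6 has 3 E2F words, of which the first 2 overlap, and 2 CCAAT boxes. A match is a run of letters and not a measured binding site.

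The GINS complex, which joins the MCM ring in the active helicase, had no member past the test. Gins4 was the most abundant at 64.6, 81.9 and 53.6 CPM in DMSO+VIP and 80.1, 74.3 and 80.9 CPM in OCA+VIP, so that the treated libraries lay within the range of the controls (log2 0.22, interval -0.13 to 0.58, adjusted p = 0.44). Gins1, Gins2 and Gins3 had means of 1.88, 5.73 and 5.94 CPM in DMSO+VIP and 3.87, 6.58 and 8.73 CPM in OCA+VIP. Their intervals were wide, and a rise as large as that of Mcm10 lies within that of Gins1. Although the complex has 1 copy of each subunit, Gins4 stood at 49.3 ± 10.5 CPM per kb in DMSO+VIP and Gins2, the next, at 5.55 ± 3.16 (SD, n = 3).

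No gene of the clamp or its loader passed. Pcna, the ring that tethers the polymerases, was the most abundant of the 38 at 293, 333 and 303 CPM in DMSO+VIP and 397, 307 and 382 CPM in OCA+VIP. OCA+VIP library 2 lay inside the range of the controls while the other two treated libraries were above it (log2 0.22, SE 0.14, interval -0.07 to 0.50, adjusted p = 0.33). Without that library Pcna was called, with a log2 fold change of 0.36 (adjusted p = 0.024). Among the subunits of replication factor C, which opens the clamp and closes it around DNA, Rfc3 was the one without overlap, at 12.5, 16.9 and 18.9 CPM and at 20.2, 24.3 and 21.6 CPM (log2 0.45, adjusted p = 0.35). The fitted log2 fold changes of Rfc1, Rfc2, Rfc4 and Rfc5 were 0.03, -0.28, 0.41 and 0.12, each with an interval that spans 0. Pcna stood at 247.2 ± 16.3 CPM per kb in DMSO+VIP, far above the loader subunits, whose means ran from 4.11 (Rfc5) to 20.02 (Rfc2).

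Pold1 (chromosome 7, 44532744 to 44548815, minus strand), which copies chiefly the lagging strand, was the 1 gene called lower. It stood at 29.2, 29.4 and 13.1 CPM in DMSO+VIP and at 7.28, 17.1 and 6.72 CPM in OCA+VIP. The groups overlapped, since DMSO+VIP library 3 was below OCA+VIP library 2 (2.32-fold lower, log2 -1.22, SE 0.38, adjusted p = 0.042). The call was lost in 4 of the 6 fits that left out a library, those without DMSO+VIP library 1 or 2 or OCA+VIP library 1 or 3 (adjusted p 0.15 to 0.19), with scaling by column totals (0.061) and with limma-voom (0.066). Pole, of the leading-strand polymerase, Pola1, which extends the primer, and Prim1, which makes it, had means of 3.97, 12.4 and 15.1 CPM in DMSO+VIP and 4.96, 15.5 and 13.0 CPM in OCA+VIP. Their fitted differences were 0.32, 0.29 and -0.25 on the log2 scale and did not pass.

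The single-strand binding complex RPA has 3 subunits, and none passed. Rpa2, the subunit that checkpoint kinases phosphorylate, stood at 26.1, 27.5 and 17.7 CPM in DMSO+VIP and at 44.7, 38.6 and 28.4 CPM in OCA+VIP. The groups were separated by a narrow margin (log2 0.63, SE 0.25, adjusted p = 0.11). Rpa1, the large DNA-binding subunit, had means of 138.3 and 124.9 CPM, and Rpa3, the smallest, of 26.8 and 20.8 CPM, with fitted log2 fold changes of -0.17 and -0.37. The estimates of the 3 subunits differed in sign, but the intervals of Rpa1 (-0.48 to 0.15) and Rpa3 (-0.96 to 0.21) span 0. Whether the subunits share a direction was not tested.

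On the lagging strand, Fen1 rose and Lig1 did not pass. Fen1, which trims the flap in front of each fragment (chromosome 19, 10199132 to 10204169), stood at 61.7, 61.1 and 50.2 CPM in DMSO+VIP and at 99.8, 80.2 and 93.5 CPM in OCA+VIP. All treated libraries were above all controls (1.56-fold, log2 0.64, SE 0.16, adjusted p = 0.012). The call was lost without DMSO+VIP library 3 or OCA+VIP library 1 or 3 (adjusted p 0.060 to 0.086). In GENCODE, 78.8% of the exon bases of Fen1 lie under the antisense gene Gm10143 and 5.37% under Tmem258, both on the other strand. Whether counting used strand is not stated, so reads of these genes cannot be told apart from those of Fen1. The same holds for 6.93% of Orc6 under Vps35 and 1.72% of Mcm7 under Cops6, and Mcm7 also hosts the microRNAs Mir25 and Mir93 on its own strand. Among genes that did not pass, such overlaps on the other strand were 10.9% of Orc1, 10.1% of Gins2, 12.4% of Rfc4, 13.5% of Chaf1a, 17.4% of Ccne2, 5.13% of Lig1 (under Zswim9) and 0.70% of Pole. Lig1, the ligase that seals the fragments, was at 5.36, 10.9 and 19.1 CPM and at 9.04, 14.6 and 11.2 CPM, all treated libraries inside the range of the controls.

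Behind the fork, Chaf1a and Chaf1b of the histone chaperone CAF-1 and Uhrf1, which brings the maintenance methyltransferase to new DNA, did not pass. Chaf1a stood at 20.2, 24.5 and 37.5 CPM in DMSO+VIP and at 24.7, 26.0 and 15.5 CPM in OCA+VIP (log2 -0.33, adjusted p = 0.51). Chaf1b had means of 15.3 and 16.5 CPM and Uhrf1 of 6.21 and 4.25 CPM, with overlapping groups.

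The genes of nucleotide supply among the 38 showed no call. Rrm1, the large subunit of ribonucleotide reductase, stood at 37.9, 32.6 and 26.3 CPM in DMSO+VIP and at 35.2, 33.0 and 29.2 CPM in OCA+VIP. The treated libraries fell within the controls, with a log2 fold change of -0.01 and an interval of -0.47 to 0.46. Rrm2, the small subunit, whose amount limits the enzyme in S phase, was at 5.25, 6.34 and 8.30 CPM and at 6.84, 7.69 and 7.32 CPM (interval -1.01 to 1.24). Tyms, which makes thymidylate, was at 13.97 ± 7.71 CPM and 18.01 ± 1.19 CPM (SD, n = 3; log2 0.33), with the treated libraries inside the range of the controls. Per kilobase, Rrm1 exceeded Rrm2 in every library, with 8.11 ± 1.47 and 3.06 ± 0.715 CPM per kb in DMSO+VIP and 8.16 ± 0.760 and 3.36 ± 0.197 in OCA+VIP (SD, n = 3).

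The E-type cyclins, which with CDK2 bring cells into S phase, were both low. Ccne2 was at 3.28, 7.57 and 6.56 CPM in DMSO+VIP and at 8.27, 6.23 and 11.0 CPM in OCA+VIP (log2 0.55, adjusted p = 0.59). Ccne1 was at 1.42, 0 and 1.61 CPM and at 6.62, 3.87 and 2.07 CPM, without overlap. It was not tested, and with 12.5 counts over the DMSO+VIP libraries, under the floor, it gets no fold.

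**Figure D3:**
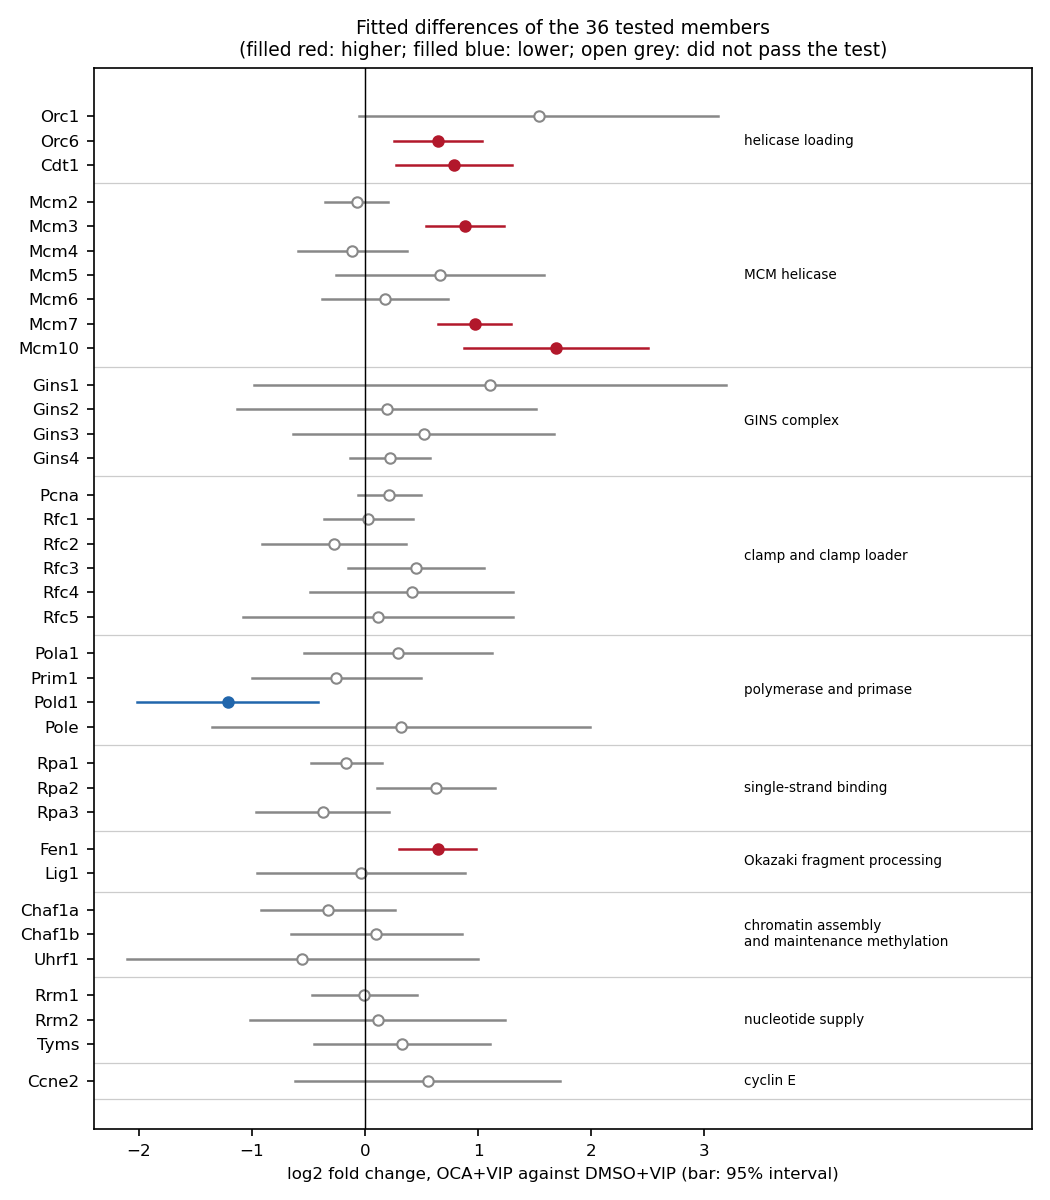
Fitted log2 fold change of OCA+VIP against DMSO+VIP for the 36 tested genes, by role, with 95% intervals (computed from the edgeR fit) and calls in filled colour. The 6 higher calls lie between 0.64 and 1.69, Pold1 is at -1.22, and the genes of nucleotide supply are centred close to 0.

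Low level limited what could be called. Of the tested genes, 12 had a mean under 10 CPM in DMSO+VIP, and 1 of them, Mcm10, passed. For such genes a p that misses the threshold says little about the size of a change, as the wide intervals of Orc1, Gins1 and Pole show.

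Start-site windows of 300 bases (250 before and 50 after the start, RefSeq, GRCm38.p6) were at hand for 31 of the 38 genes, 27 of them at the start of the deposited transcript and 4 elsewhere. The E2F words listed above occurred in 11 of the 31 (35.5%), beside 2.26% of all 32851 windows and 4.04% of the windows of tested genes. CCAAT occurred in 21 (67.7%), beside 37.4% of all windows, and no match of 1 kind overlapped a match of the other. These sites of 30 bases are shown because they hold the E2F words, in capitals, of the genes with a match; for Mcm6 the site holds the first 2 of 3, and the third is in the upstream sequence above.
Orc1 (chr4:108579416-108579445, plus strand): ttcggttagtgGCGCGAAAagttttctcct
Cdc6 (chr11:98908002-98908031, plus strand): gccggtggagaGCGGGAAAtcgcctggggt
Cdt1 (chr8:122568035-122568064, plus strand): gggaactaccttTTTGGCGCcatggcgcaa
Mcm3 (chr1:20820266-20820295, minus strand): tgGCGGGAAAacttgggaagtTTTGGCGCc
Mcm5 (chr8:75109347-75109376, plus strand): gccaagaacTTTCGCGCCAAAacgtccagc
Mcm6 (chr1:128359795-128359824, minus strand): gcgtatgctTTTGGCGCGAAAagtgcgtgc
Gins3 (chr8:95633507-95633536, plus strand): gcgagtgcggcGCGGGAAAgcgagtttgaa
Rfc3 (chr5:151651195-151651224, minus strand): gcacgcTTTCGCGCtcGCGGGAAAactcta
Pola1 (chrX:93632275-93632304, minus strand): gtcatcacaggGCGCCAAAtgcactcccgc
Pold1 (chr7:44548766-44548795, minus strand): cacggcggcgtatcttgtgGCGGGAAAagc
Uhrf1 (chr17:56304117-56304146, plus strand): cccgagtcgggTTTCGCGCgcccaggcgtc
Mcm3 holds 2 words at bases 19 and 38 after the start, Cdt1 1 at base 32 and Pold1 1 at base 39, while those of Mcm5, Mcm6, Orc1, Gins3 and Uhrf1 lie upstream. In Mcm5 and in Mcm6 a pair of words overlap on opposite strands and share 4 bases. The words were in 2 of the 6 windows of genes that rose (Mcm3 and Cdt1), in the 1 of the gene that fell (Pold1) and in 7 of the 22 of genes that did not pass. CCAAT was in 4 of the 6 windows of genes that rose and in 17 of the 22 of genes that did not pass. Over all genes, windows with an E2F word were 4.11% of those of higher genes and 3.47% of those of lower genes. The counts for the 31 genes use 1 window each and depend on that choice. Mcm7, Fen1, Lig1 and Uhrf1 had more than 1 window. With any window counted, 13 of the 31 had an E2F word, beside 2.6% of all genes. The windows used for Mcm10 and Fen1 lay 447 and 224 bases from the deposited start. The last bases of 26 of the 31 windows lay in a GENCODE transcript of the gene. No match says only that these letters are not in this window.

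The other genes of replication and of the cell cycle were read from 6 lists. Over all tested genes 5.72% were called higher and 6.04% lower, the shares to set beside each count below. A single higher call in 36 tested genes lies below that share. Of 42 other fork and origin genes, 36 were tested and 1 rose: Dbf4, the activator of the CDC7 kinase that fires origins. It stood at 28.2, 37.2 and 41.8 CPM in DMSO+VIP and at 67.3, 60.8 and 59.4 CPM in OCA+VIP (log2 0.79, SE 0.20, adjusted p = 0.0094). The call was lost without DMSO+VIP library 1 or OCA+VIP library 1 (adjusted p 0.065 and 0.064). The median log2 fold change of this list was 0.24, close to that of the 38 genes. Of 18 genes of replication stress and recombination, 14 were tested and 1 rose: Slbp, which binds the stem-loop of histone messages and is needed to make histones in S phase. It stood at 114, 109 and 119 CPM and at 199, 182 and 208 CPM (log2 0.77, SE 0.13, adjusted p = 0.00028), and the list had a median of 0.22.

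Of 12 other deoxynucleotide genes, 11 were tested, with a median log2 fold change of -0.09. All 18 genes of purine and pyrimidine synthesis were tested, with 3 higher, 1 lower and a median of 0.04. Ppat, the committed step of purine synthesis, rose from 81.9 ± 9.19 to 128 ± 6.16 CPM (SD, n = 3; log2 0.63, adjusted p = 0.0045), and Ctps, which makes CTP, from 89.2 ± 12.2 to 130 ± 2.92 CPM (log2 0.52, adjusted p = 0.015). The paired phosphoribosyl pyrophosphate synthetases went opposite ways. Prps1 rose from 69.3 ± 21.2 to 105 ± 5.99 CPM (log2 0.58, adjusted p = 0.036), and Prps2 fell from 38.9 ± 5.85 to 20.4 ± 5.85 CPM (log2 -0.95, adjusted p = 0.014). Ppat and Slbp were called in all 6 fits that left out a library. In GENCODE, 6.15% of the exon bases of Ppat lie under Paics and 8.10% of those of Slbp under Gm10459, on the other strand. Ctps lost its call without DMSO+VIP library 1 or 2 or OCA+VIP library 1 or 3 (adjusted p 0.052 to 0.077). Prps1 lost it without DMSO+VIP library 1 or 3 or OCA+VIP library 1 or 3 (0.10 to 0.19) and with upper-quartile scaling (0.053), and Prps2 without DMSO+VIP library 3 or OCA+VIP library 3 (0.078 and 0.091).

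Regulators of entry into S phase showed no call in 28 tested of 34, with a median of -0.16, and mitosis genes none in 15 tested of 25, with a median of 0.31. Nearest to the threshold among the former were Mycn and Ccnd2. Mycn, a MYC family factor, was at 0, 0 and 1.61 CPM in DMSO+VIP and at 5.40, 4.83 and 6.29 CPM in OCA+VIP (adjusted p = 0.055); its fold is left out, since the controls lie under the floor. Ccnd2, cyclin D2, had a log2 fold change of -0.31 (adjusted p = 0.11). Each was called in 1 fit that left out a library (Mycn without DMSO+VIP library 3, adjusted p = 0.013; Ccnd2 without OCA+VIP library 2, 0.032) and by DESeq2 (0.010 and 0.036), and Mycn also with no filter on low counts (0.031). Among the mitosis genes, the kinase gene Aurka (8.76 ± 4.12 and 17.1 ± 4.65 CPM, adjusted p = 0.14) and Ccnb2, cyclin B2 (4.79 ± 3.29 and 10.9 ± 3.66 CPM, adjusted p = 0.19), came nearest (SD, n = 3). The 25 mitosis genes together summed to 123, 97.7 and 94.8 CPM in DMSO+VIP and to 135, 148 and 144 CPM in OCA+VIP.

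**Figure D4:**
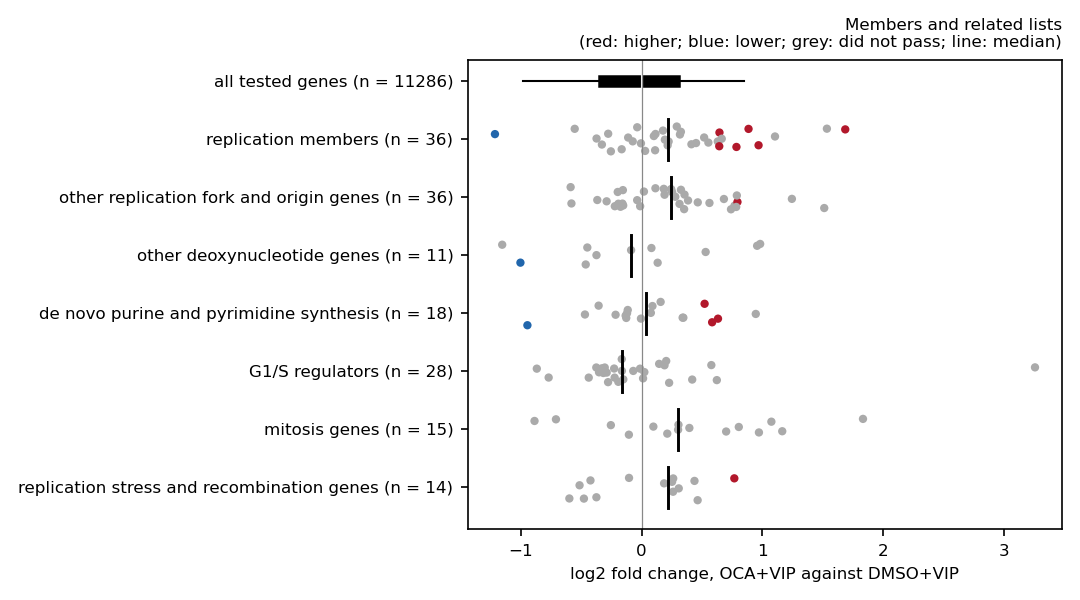
Fitted log2 fold change of OCA+VIP against DMSO+VIP for the tested genes among the 38 and in the 6 related lists, 1 point a gene, with calls in red and blue and the median as a line; for all 11286 tested genes the thick bar spans percentiles 25 to 75 and the thin bar 5 to 95. The medians run from -0.16 for the regulators of S-phase entry to 0.31 for mitosis genes.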

How the data were processed

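Per the deposited table, the authors gave expected counts per gene over exons, not adjusted for library size and in steps of 0.5, in the layout HOMER writes. The submitters' processing notes name mm10, STAR, HOMER and DESeq2 without role, order or version. The use of strand and the removal of duplicates are not given in the sources used here. Column names gave the groups; the numbers in them could not be tied to the replicate letters of the titles.

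Counts were rounded and tested with edgeR 4.0.16 (R 4.3.3): TMM, a filter on low counts (filterByExpr by group, with 10 as minimum count and 15 as minimum total) and a quasi-likelihood F test with 4 residual degrees of freedom, two-sided, with Benjamini-Hochberg adjustment over all genes tested. The common biological coefficient of variation was 0.198. The SE is the absolute log2 fold change divided by the square root of F. Intervals are 95% and use this SE with the total degrees of freedom of the fit, which are more than the 4 residual ones. CPM use the column total without TMM. Between 65.4% (OCA+VIP library 2) and 87.5% (DMSO+VIP library 1) of low counts lay near multiples of 3, and a step of 6 was not measured as such. On simulated data with 10930 genes the steps recovered 46% of 2-fold and 80.8% of 4-fold changes of OCA+VIP against DMSO+VIP, none with the wrong sign, with 3 false calls. The changed genes there were drawn only from genes above a set mean CPM, and each simulated fragment stood for 6 counts. Recovery for genes below that mean was not examined.

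Values per library were given for called genes, for the tested gene of smallest p after them (to make 8) and for the most abundant tested gene of each other role; others were named by range or after their values were seen. One gene of the related lists is not reported. The genes, roles and lists were chosen with earlier results of these data known. Promoters and exon overlaps come from RefSeq and GENCODE (release 21). Alternatives were RLE, upper-quartile and column-total scaling, 2 other filters, DESeq2 1.42.0, limma-voom (limma 3.58.1), a replicate block, counts divided by 6, adjusted p under 0.01 or 0.1, and each library left out in turn. Those for the related lists and for summed CPM were chosen after seeing the data. Tables and figures used Python 3.11.15, pandas 2.3.3, numpy 2.4.6 and matplotlib 3.10.9.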

Additional observations from a re-analysis of the deposited data

How the results depend on the processing

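Mcm3, Mcm7 and Mcm10 kept their direction and their call in all 15 refits and at a threshold of 0.01. At that threshold 3 of the replication genes were called, 3 higher and 0 lower, 4 genes of the related lists, and 648 genes in all (303 higher, 345 lower), beside 1328 at 0.05. With DESeq2 2201 genes were called (1111 higher, 1090 lower), as were 20 genes of the related lists beside 7 with edgeR, while the count of replication genes was again 7. A threshold of 0.1 gave 14 genes of the related lists. The 1 lower call, Pold1, was lost (0 lower) with column totals and with limma-voom. Leaving out 1 library gave 737 to 1478 genes called, 310 to 745 higher and 395 to 733 lower. Of the replication genes it gave 3 to 8 called, 3 to 7 higher and 0 to 1 lower, of the related lists 4 to 11 called, and a median log2 fold change of the replication genes of 0.24 to 0.35, above the 0.22 of the full set. Fewer libraries enter these fits; the cause was not tested further. The median of all tested genes moved from -0.036 (upper quartile) to 0.052 (no filter), under 0.1 in all settings.

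No gene that changed sign was called in any of these fits. Outside leaving out libraries these were Rfc1 with upper-quartile scaling (-0.0074), Rfc5 with limma-voom (-0.011), Lig1 with limma-voom (0.30) and the replicate block (0.093), Chaf1b with the replicate block (-0.031), and Rrm1 with column totals (0.0097), no filter (0.0021), a filter of 1 CPM in 3 libraries (0.00037) and the replicate block (0.0080). Leaving out 1 library, the log2 fold change ranged from -0.17 to 0.037 for Mcm2, -0.27 to 0.20 for Mcm4, -0.070 to 0.51 for Mcm6, -0.24 to 0.48 for Gins2, -0.16 to 0.15 for Rfc1, -0.63 to 0.016 for Rfc2, -0.44 to 0.40 for Rfc5, -0.13 to 1.74 for Pole, -0.28 to 0.057 for Rpa1, -0.41 to 0.52 for Lig1, -0.42 to 0.35 for Chaf1b, -0.14 to 0.13 for Rrm1, -0.047 to 0.31 for Rrm2 and -0.040 to 0.67 for Tyms.

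Whether the column numbers pair the libraries is not settled. Deviations of same-numbered libraries from their group means correlated at -0.035, -0.050 and 0.030, and those of other pairs at -0.031 to 0.078. With 3 libraries a group, such values can neither show nor exclude a shared animal or culture. With the number as a replicate block 1118 genes were called (549 higher, 569 lower), and of the replication genes again 6 higher and 1 lower. Depth limits genes of a few CPM, whose intervals reach past 1 on the log2 scale.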
